A study of Mus musculus with 2 samples.

Results

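Cluster 0 was the largest of the 18 clusters in the cell annotation deposited with the single-cell data of 2 MMTV-PyMT mammary tumors. Its members were all cells that the annotation placed in cluster 0, joined to the count matrices by mouse and barcode. It held 967 of 3829 annotated cells in mouse 1 (25.3%, 95% exact binomial interval 23.9 to 26.7) and 1359 of 5330 in mouse 2 (25.5%, 24.3 to 26.7), 2326 of 9159 in all. The intervals cover counting error only.

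Both animals carried Krt8-CreERT, Rosa26-mTmG and MMTV-PyMT. The viral promoter MMTV drives the polyoma middle T oncogene in mammary epithelium, Krt8-CreERT places a tamoxifen-dependent recombinase under control of a luminal keratin gene, and the mTmG reporter exchanges its red fluorescence for green (GFP) once recombined. Each animal was given 150 mg/kg tamoxifen on 3 days in week 5 and 3 days in week 6 of age, and its tumor was collected at 1.5 cm3. GFP-positive cells that were negative for DAPI, CD31 and CD45 were sorted, so every cell compared here had passed the same luminal lineage label, and there was no untreated or unlabelled group. Each mouse gave 1 library, and mouse 1 and mouse 2 were the 2 replicates of this single condition.

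The luminal layer of the mammary gland consists of secretory alveolar cells and their progenitors, which carry simple keratins, claudins and the adhesion protein Epcam and make milk proteins in pregnancy, and of hormone-sensing cells, which carry the estrogen receptor. Basal or myoepithelial cells surround them and carry Krt5, Krt14 and contractile proteins. Luminal progenitors, known for Kit, Elf5, Aldh1a3 and low levels of milk transcripts, are regarded as a cell of origin for several mammary tumor types.

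The matrices held 63140346 UMIs (unique molecular identifiers, each standing for a captured transcript) in mouse 1 and 61529883 in mouse 2. The cells of cluster 0 contributed 15193809 and 15588175 of these, and all other annotated cells, clusters 1 to 17, contributed 43436097 and 41384469. The median cell of cluster 0 carried 15278 UMIs from 3552 genes in mouse 1 and 10615 from 2880 in mouse 2, beside 14832.5 and 8902 UMIs in the other cells. The median mitochondrial share was 5.73% and 4.74% in cluster 0 and 6.39% and 5.78% outside it. The libraries shared 9 barcodes among annotated cells, of which 1 lay in cluster 0 of both mice.

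UMIs were summed per mouse over cluster 0 and over the other annotated cells and expressed as CPM, which are UMIs per 1000000 UMIs of the same sum. Because the annotation was drawn from the expression of these same genes, a difference between cluster 0 and the rest describes the cluster and was given no test or p-value. A gene is called higher or lower here when it differed by at least 1.5-fold in the same direction in both mice, and the error given is the SD of the log2 ratio over the 2 mice. The make-up of the other cells differed between the mice. Cluster 3 held 18.9% of the annotated UMIs in mouse 1 and 4.91% in mouse 2, and cluster 2 held 1.58% and 13.2%. The SD and the calls therefore include this difference and do not describe cluster 0 alone. Of 9166 genes with a mean of at least 5 CPM, 200 were higher in cluster 0 (2.18%) and 641 were lower (6.99%). The median gene had a log2 ratio of -0.10 in mouse 1 and -0.12 in mouse 2. The sign was the same in both mice for 73.1% of the genes, and across 9157 genes with UMIs in all sums the ratios of the mice had a Pearson r of 0.753; genes are not independent replicates. This balance of higher and lower genes depended on the scaling, since with TMM factors 397 were higher and 435 lower and with DESeq2 size factors 426 were higher and 384 lower, with the median gene at 0.05 and 0.07. Ratios below are therefore to be read against a median gene that CPM placed at -0.11 over the 2 mice.

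**Figure D1:**
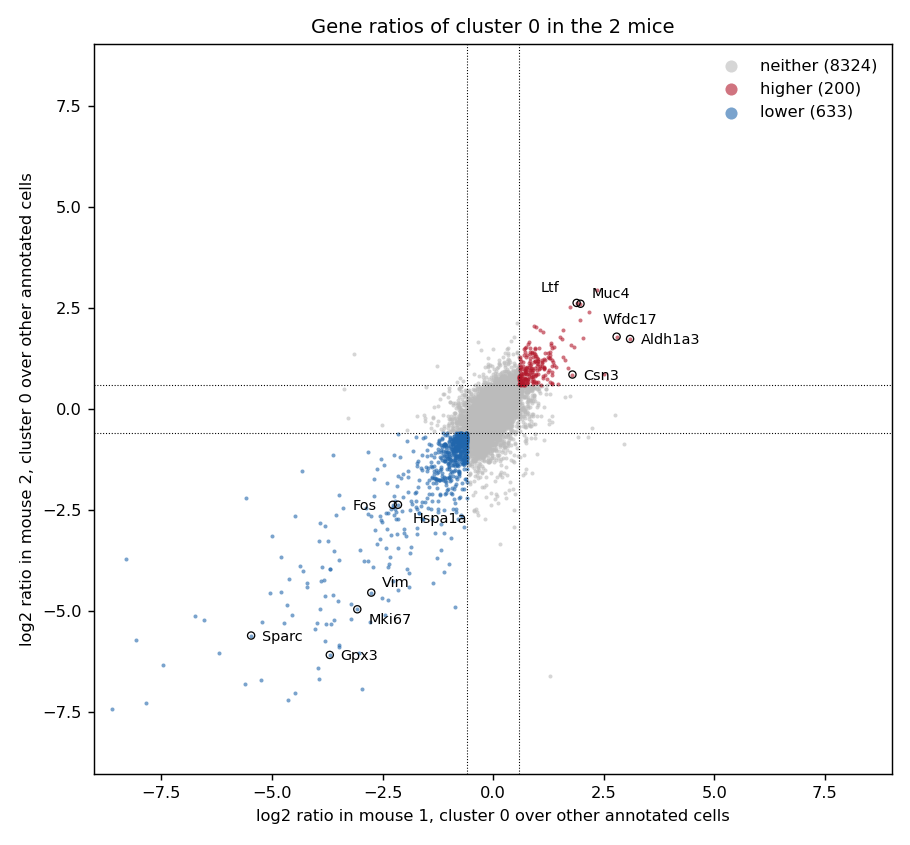
Log2 ratio of each gene, cluster 0 over the other annotated cells, in mouse 1 (horizontal axis) and mouse 2 (vertical axis). Each point is 1 of 9157 genes, red and blue points passed the 1.5-fold limit (dotted lines) in both mice, and the higher genes stay closer to the limit than the lower ones.

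The keratins and Epcam that gave the cluster its label were among its highest transcripts. Krt8, a type II simple keratin (GRCm38 chr15:101996698-102004482, minus strand), stood at 7242 CPM in cluster 0 and 3888 CPM in the other cells of mouse 1, and at 9642 and 5318 CPM in mouse 2. Krt18, the type I keratin that pairs with it (chr15:102028180-102032027, plus strand), stood at 5955 against 3430 CPM and at 8271 against 5180 CPM. Both keratins were thus higher in both mice, with log2 ratios of 0.88 ± 0.03 and 0.74 ± 0.09 (SD, n = 2). Epcam (chr17:87635979-87651129, plus strand) stood at 8597 against 5908 CPM and at 7268 against 4175 CPM, a log2 ratio of 0.67 ± 0.18 that was just short of the 1.5-fold limit in mouse 1. The kappa-casein gene Csn3 (chr5:87925579-87932665, plus strand) stood at 6026 against 1741 CPM and at 6192 against 3436 CPM, a log2 ratio of 1.32 ± 0.67. The level of Csn3 in cluster 0 hardly differed between the mice, whereas its level in the other cells did.

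None of the 4 markers was highest in cluster 0 in both mice. Krt8 ranked 2nd of 18 in mouse 1 and highest in mouse 2, Krt18 4th and highest, Epcam 2nd and highest, and Csn3 2nd and 5th. The sum of all 4 was highest in cluster 0 in both mice, at 27819.9 and 31372.7 CPM. The label of a Krt8-high luminal population was given from these same 4 genes, so their levels describe the cluster and are no check of the label. None of these genes alone singled out the cluster in both mice.

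**Figure D2:**
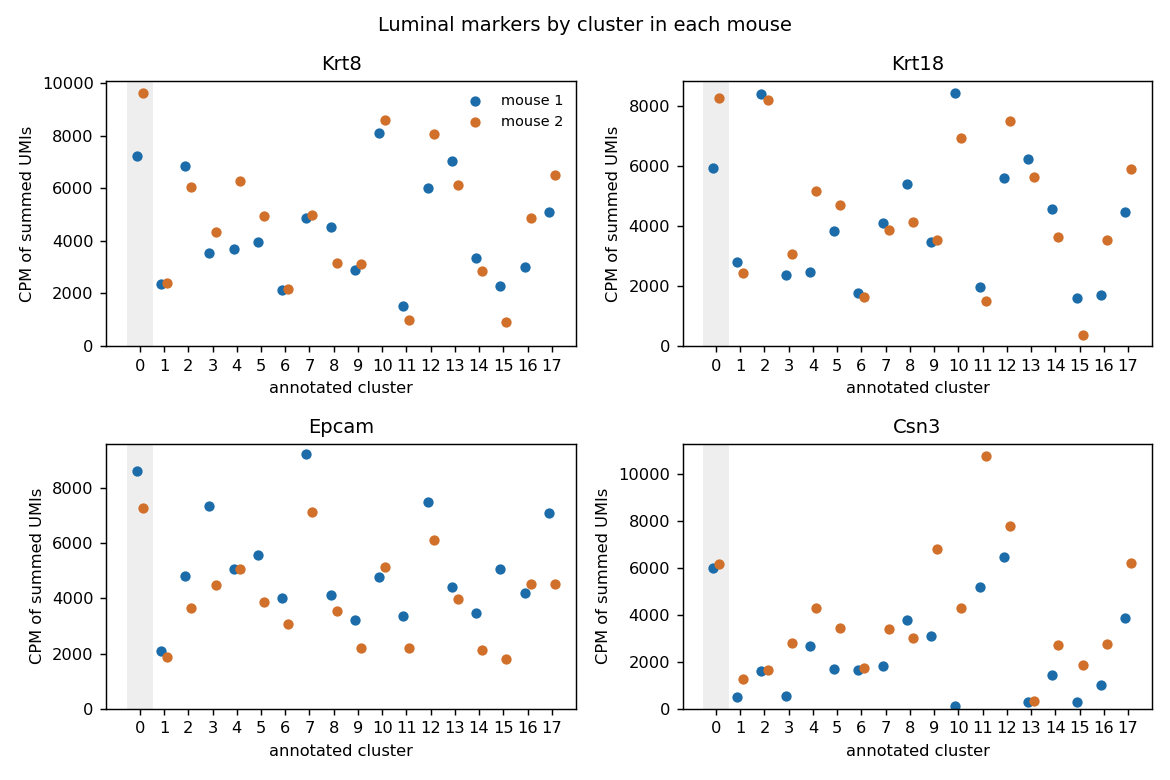
CPM of Krt8, Krt18, Epcam and Csn3 (vertical axes, from 0) in each of the 18 annotated clusters (horizontal axes), with 1 point per mouse and cluster 0 shaded. Cluster 0 is near the top of every panel, and other clusters exceed it for Krt8, Krt18 and Epcam in mouse 1 and for Csn3 in both mice.

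Detection in single cells was compared after every cell had been thinned to 2000 UMIs, which left out 7 and 38 shallower cells of cluster 0 and 485 and 819 of the others. At that depth all 4 markers were detected in 82.8% of 960 cells in mouse 1 (80.3 to 85.1) and in 88.6% of 1321 cells in mouse 2 (86.7 to 90.2). Among the other cells the shares were 38.2% (36.3 to 40.2) and 58.1% (56.4 to 59.8). These pooled shares cover unlike clusters, since they were 75.6% and 90.3% in cluster 12 and 81.9% and 73.9% in cluster 8. In cluster 15 they were 13.1% and 5.88%. Joint detection of the 4 markers was thus not particular to cluster 0. Csn3 accounted for most of the missing detections, with a UMI in 84.4% and 88.8% of the cells of cluster 0 and in 93.1% and 95.9% of them without thinning. For comparison, cluster 13 had the highest mean of the deposited mature luminal score in both mice, and hormone-sensing cells are not known for casein. A Csn3 UMI was found in 11.1% and 18.6% of its thinned cells, whose median depth before thinning was 15278 and 11818.5 UMIs.

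Of the basal keratins, Krt5 was rare in both mice and Krt14 less so in mouse 2. Krt5 was found in 0 of 960 and 0 of 1321 thinned cells, which allows shares of up to 0.384% and 0.279% of cells with a UMI at that depth (exact interval) and sets no limit on cells that express the gene. Without thinning 0.103% and 0.0736% of the cells had a Krt5 UMI. By comparison, 12.7% and 15.3% of the thinned cells of cluster 6, the cluster with the highest sums of basal genes in both mice, had a Krt5 UMI. Krt14 was found in 1.46% and 6.66% of the thinned cells of cluster 0 and in 2.90% and 6.06% of the other cells. Without thinning the shares were 3.10% and 13.5% in cluster 0 and 4.30% and 8.59% in the other cells. In mouse 2 Krt14 was thus no less frequent in cluster 0 than outside it. In cluster 13 the thinned shares were 2.78% and 2.73%. The share of mouse 2 was thus above that of cluster 13 and that of mouse 1 was not.

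The scores deposited with the annotation rate each cell from 0 to 1 for signatures of luminal progenitor, mature luminal and basal cells. Mean scores in cluster 0 were 0.551 and 0.450 for luminal progenitors, 0.125 and 0.126 for mature luminal cells and 0.0712 and 0.0660 for basal cells. The luminal progenitor score was the highest of the 3 in 82.3% and 75.3% of the cells of cluster 0 and in 41.8% and 48.7% of the others. Even so, cluster 0 ranked only 6th and 8th of 18 in its mean luminal progenitor score. It ranked 16th and 15th for the mature luminal score and 16th and 15th for the basal score. Cells with luminal progenitor and basal scores both above 0.5 made up 3.62% and 3.09% of cluster 0, and 10.3% and 9.54% of the other cells.

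Luminal genes as a group were high. Of 10 pan-luminal genes, 6 passed the limit upwards and none downwards, and all 10 lay above 0 in both mice, with a median log2 ratio of 0.74 beside -0.11 over all genes. The list holds Krt8, Krt18 and Epcam, which also gave the cluster its label. Its summed level was highest in cluster 0 in mouse 2, but in mouse 1 cluster 13 was higher, at 31960 against 27948 CPM. Krt7, a simple keratin of glandular epithelium, stood at 457 against 240 CPM in mouse 1 and 937 against 360 CPM in mouse 2. The tight junction gene Cldn4 stood at 1944 against 961 CPM and 2408 against 1331 CPM, Cldn7 at 1240 against 738 CPM and 1262 against 761 CPM, and the cadherin gene Cdh1 at 495 against 286 CPM and 583 against 349 CPM. Krt19, Epcam, Cldn3 and the transcription factor gene Elf3 did not pass the limit in both mice.

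The luminal progenitor genes were divided. Of 12 counted, 5 were higher (Aldh1a3, Ltf, Csn3, Plet1 and Cd14), 1 was lower (Hey1) and the median log2 ratio was 0.49. With TMM factors, with DESeq2 size factors and with a mean of at least 20 CPM 5 were higher and none was lower. Aldh1a3, a retinaldehyde dehydrogenase, had the largest mean ratio of any gene with at least 50 CPM, at 116 against 13.5 CPM in mouse 1 and 88.7 against 26.7 CPM in mouse 2 (log2 2.41 ± 0.96). It was carried by a minority of cells, with a UMI in 6.04% and 7.04% of the thinned cells of cluster 0. Among the other cells the shares were 1.89% and 2.13%. In mouse 2 cluster 10 exceeded cluster 0 for Aldh1a3, at 112 CPM. Plet1, a surface protein of epithelial progenitors, stood at 5932 against 2511 CPM and 5044 against 2074 CPM, and its ratio hardly differed between the mice (1.26 ± 0.03). Cd14, the co-receptor for bacterial lipopolysaccharide, stood at 341 against 223 CPM and 682 against 439 CPM. The receptor gene Kit, at 43.2 against 37.6 CPM and 67.5 against 78.7 CPM, and the transcription factor gene Elf5, at 184 against 136 CPM and 137 against 113 CPM, passed no limit. Wfdc18, the most abundant gene of the list, stood at 21815 against 8971 CPM in mouse 1 and at 11485 against 8836 CPM in mouse 2. Its ratio in the second animal lay below the limit.

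Milk protein genes were higher in 3 of 4 counted cases, the marker Csn3 among them, with a median log2 ratio of 1.26. Csn1s1, the alpha-S1-casein gene, stood at 41.0 against 21.0 CPM and 59.3 against 14.5 CPM (log2 1.50 ± 0.76). Few cells carried it, with a UMI in 2.50% and 2.27% of the thinned cells of cluster 0 and in 1.68% and 0.412% of the others. The intervals overlapped in mouse 1 (1.61 to 3.70 and 1.20 to 2.28). Cluster 0 ranked 6th and 2nd of 18 for Csn1s1, and cluster 14 of mouse 1 reached 213.5 CPM. Wap, the whey acidic protein, stood at 82.2 against 36.3 CPM in mouse 1 and at only 11.1 against 4.78 CPM in mouse 2, with nearly the same ratio (1.20 ± 0.02). Lalba, alpha-lactalbumin, stood at 227 against 177 CPM and 422 against 232 CPM and did not pass in mouse 1. Csn3 therefore made up nearly all of the summed milk protein level of 6384.5 and 6707 CPM. That sum ranked 2nd and 4th of 18, and was highest in cluster 12 of mouse 1 (6738 CPM) and cluster 11 of mouse 2 (10896 CPM).

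Most hormone-sensing genes were low or near the median. None of the 8 counted was higher and 3 were lower, Cited1, Foxa1 and Wnt4, all under 3 CPM in cluster 0. These 3 passed the filter of 5 CPM only through the other cells, and with a mean of at least 20 CPM 0 of 5 were lower, with TMM factors 2 of 7 and with DESeq2 size factors 1 of 6. Esr1, the estrogen receptor, stood at 61.9 against 82.5 CPM and 80.3 against 91.2 CPM, and Prlr, the prolactin receptor, at 81.9 against 84.4 CPM and 58.8 against 136 CPM. Both were within the limit in mouse 1. Areg, an estrogen-responsive EGF receptor ligand, stood at 361 against 737 CPM and 233 against 324 CPM and passed in mouse 1 only. Ly6a went the other way in mouse 1, at 389 against 230 CPM, and passed the limit upwards there. In mouse 2 Ly6a stood at 114 against 125 CPM.

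The genes with the largest ratios also included 3 mucins, a grouping made after their values were seen, and Ltf of the luminal progenitor and defence lists. Ltf, the iron-binding milk protein lactotransferrin, stood at 221 against 59.8 CPM and 393 against 63.9 CPM (log2 2.25 ± 0.52). An Ltf UMI was found in 11.1% and 20.7% of the thinned cells of cluster 0, beside 3.20% and 5.43% of the others. Muc4, a membrane mucin, stood at 45.7 against 11.6 CPM and 258 against 42.5 CPM (2.29 ± 0.44), Muc1 at 152 against 69.9 CPM and 148 against 39.5 CPM (1.52 ± 0.56), and Muc15 at 168 against 69.0 CPM and 87.5 against 32.8 CPM (1.35 ± 0.09). The 3 mucins were higher in both animals, with different levels of Muc4 between them. A Muc4 UMI was found in 6.35% and 26.8% of the thinned cells of cluster 0, beside 2.10% and 5.52% of the others. Csf1, the macrophage growth factor, stood at 110 against 37.4 CPM and 394 against 119 CPM, a log2 ratio of 1.64 ± 0.13 in spite of the difference in level between the mice. Edn1, the vasoconstrictor endothelin 1, stood at 57.9 against 17.4 CPM and 67.2 against 11.7 CPM (2.13 ± 0.55). Also among the 15 genes with the largest ratios were Wfdc17, a whey acidic protein family member, Fam167a, the carbonyl reductase Cbr2, the nucleoside transporter Slc28a3 and the microtubule protein Map1b, together with Endod1, and their log2 ratios ran from 1.42 ± 0.13 to 2.29 ± 0.71.

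A gene can be higher than in the mean of the rest and still be exceeded by some cluster. Of the 9166 counted genes, cluster 0 had the highest level of all 18 clusters in both mice for only 26, and the lowest for none. These counts were not set beside those of any other cluster. Cluster 0 also had the largest UMI sum in both mice, and the part of this in the counts was not tested. The margins were small. Wfdc17 exceeded the next cluster by 1.32-fold in mouse 1 and 1.69-fold in mouse 2, the calcium channel gene Orai1 by 1.32- and 1.22-fold, the endosomal GTPase gene Rab7b by 1.18- and 1.41-fold and Dusp5, an ERK phosphatase, by 1.43- and 1.11-fold. Several others were genes of the cytoskeleton. Actn1, alpha-actinin 1, stood at 407 and 440 CPM in cluster 0 with a log2 ratio of 1.06 ± 0.01 to the other cells, and the tubulin genes Tubb2b and Tubb2a at 263 and 288 CPM (1.23 ± 0.41) and at 603 and 487 CPM (0.87 ± 0.18). These genes belonged to no list chosen for the analysis, and the theme was not tested.

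The largest ratios in the other direction included Acta2 of the basal list and Vim of the mesenchymal list. Sparc, a matricellular protein, stood at 5.53 against 246 CPM in mouse 1 and 1.93 against 93.8 CPM in mouse 2 (log2 -5.54 ± 0.09). Acta2, smooth muscle actin, stood at 11.1 against 156 CPM and 3.85 against 72.1 CPM (-4.02 ± 0.29), and Vim, vimentin, at 38.0 against 257 CPM and 3.40 against 79.3 CPM (-3.65 ± 1.26). Both animals had low values of all 3 genes in cluster 0. Mgp, matrix Gla protein, stood at 18.03 against 405 CPM and 10.6 against 67.3 CPM, and Apoe, apolipoprotein E, at 10.0 against 151 CPM and 7.63 against 53.7 CPM. Other clusters were lower still, since cluster 0 ranked 13th and 10th of 18 for Sparc and 14th and 9th for Mgp. For Scgb1b27 it ranked 6th and 11th, and for Smr3a 9th and 11th. Cluster 6 was highest in both mice for Sparc (2517 and 2295 CPM), Mgp (3889 and 1304 CPM) and Apoe (1726 and 980 CPM). Fst, follistatin, stood at 5.92 against 66.8 CPM and 7.83 against 34.0 CPM. The glutathione peroxidase Gpx3, the secretory gland genes Scgb1b27 and Smr3a, the collagen Col4a1, the phospholipase Pla2g7, the fibrinogen chain Fgg, Tesc and the histone gene Hist1h2ap were also among the 15 with the largest ratios in this direction, with log2 ratios from -4.89 ± 1.69 to -2.64 ± 0.14.

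Of 7 counted basal and myoepithelial genes, 6 were lower and none higher (median log2 ratio -2.10), and of 5 counted mesenchymal genes 4 were lower and none higher (-2.40). Several of these genes passed the filter only through the other cells, and with a mean of at least 20 CPM 3 of 4 basal genes and the only mesenchymal gene counted were lower. Krt14 was the exception among basal genes, at 21.1 against 62.7 CPM and 83.1 against 92.0 CPM. The summed level of the basal list in cluster 0 ranked 10th of 18 clusters in mouse 1 and 6th in mouse 2. These calls rested on a few small clusters. When clusters 6, 13, 15 and 16 were left out of the other cells, 2 of 7 basal genes were higher and 1 was lower, 1 of 2 mesenchymal genes was lower, and the mean log2 ratio changed sign for Acta2 (0.43) and Fst (0.19). Markers of other cell types were low or at 0 in cluster 0, apart from the macrophage and neutrophil sums. The leukocyte gene Ptprc had 0 UMIs in both mice, and the 7 fibroblast genes summed to 3.49 CPM in mouse 1 and 1.99 CPM in mouse 2, beside 120 and 128 CPM in the other cells. Col1a2 had 0 UMIs in cluster 0 of both mice and was at least 93.2-fold and 107-fold lower than in the other cells when set at a floor of 3 UMIs per library. The 7 macrophage genes summed to 28.8 and 12.4 CPM in cluster 0 and to 18.7 and 26.3 CPM in the other cells. In mouse 1 the macrophage sum was thus 1.53-fold higher in cluster 0, 5th of 18 clusters, and Cd68 made up most of it at 26.3 against 16.2 CPM, while Adgre1 had 0 UMIs in cluster 0 of both mice. The 3 neutrophil genes summed to 25.997 and 64.2 CPM, beside 32.9 and 190.3 CPM, nearly all of it S100a8. The 6 endothelial genes summed to 1.45 and 1.15 CPM, beside 3.94 and 17.5 CPM, and the 6 T and NK cell genes to 0.0658 and 0.128 CPM, beside 0.253 and 1.28 CPM. The 4 B cell genes summed to 0.132 and 0.192 CPM (others 0.299 and 0.338), the 3 adipocyte genes to 0.0658 and 0.257 CPM (others 2.60 and 7.78) and the 4 erythroid genes to 0 and 0.898 CPM (others 0.391 and 49.7). Their part in the results was not tested.

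Proliferation genes were low in cluster 0. Of 14 counted, 13 were lower and none higher, with a median log2 ratio of -3.15, and most of them passed the filter only through the other cells. With a mean of at least 20 CPM 3 of 4 were lower. Mki67, which marks cycling cells, stood at 3.03 against 25.5 CPM and 2.37 against 73.7 CPM, Top2a, the mitotic topoisomerase, at 1.91 against 23.3 CPM and 1.22 against 45.6 CPM, and Pcna, the replication clamp, at 65.8 against 79.1 CPM and 40.0 against 79.8 CPM. Pcna alone was not called. At least 3 of 16 proliferation genes were detected in 0.312% of thinned cells in mouse 1 (3 cells, interval 0.0645 to 0.911) and 0.227% in mouse 2 (3 cells, 0.0469 to 0.662), beside 4.08% and 7.07% of the other cells. The summed level of the list, 146 and 133 CPM, ranked 14th and 16th of 18, so several other clusters were about as low. Cluster 16 had the highest level, 3647 and 3746.5 CPM, and with that cluster left out 9 of 11 proliferation genes were still lower.

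Most genes of the stress and response lists passed the limit in neither direction. The counts from these short lists are to be read beside the shares over all counted genes, 2.18% higher and 6.99% lower. Of 14 immediate early genes, 4 were lower, Fos, Egr1, Fosb and Atf3, and 1 was higher, Klf6. Fos, which encodes an AP-1 subunit, stood at 61.9 against 299 CPM in mouse 1 and 113 against 583 CPM in mouse 2 (log2 -2.32 ± 0.07), and Egr1, a zinc finger factor, at 81.9 against 193 CPM and 54.5 against 303 CPM. Klf6 stood at 1432 against 949.5 CPM and 1749 against 1067 CPM. Jun, Junb and Jund did not pass the limit.

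Among 11 heat shock genes 4 were lower and none higher (median log2 ratio -0.45). Hspa1a, an inducible Hsp70, stood at 75.4 against 335 CPM and 68.0 against 352 CPM (-2.26 ± 0.15), Hspa1b at 236 against 571 CPM and 139 against 460 CPM (-1.50 ± 0.32), and Hsph1 and the mitochondrial co-chaperonin gene Hspe1 were lower by less. The constitutive chaperones Hsp90ab1, at 3874 against 4269 CPM and 3100 against 3604 CPM, and Hspa8, at 1042 against 1390 CPM and 1051 against 1349 CPM, were within the limit. Hspb1, at 3865 against 2758 CPM and 3365 against 2629 CPM, lay above 0 in both mice. With TMM or DESeq2 scaling only Hspa1a and Hspa1b would count as lower of these 11. The pair are near-identical copies, so reads may have been split between them. The 120 bases before their RefSeq start sites on GRCm38.p6, printed here because these genes also separate cluster 0 from its nearest neighbour, differed at 1 base, both on the minus strand, with capitals marking a match to the heat shock element core GAANNTTC.
Hspa1a, chr17:34972157-34972276: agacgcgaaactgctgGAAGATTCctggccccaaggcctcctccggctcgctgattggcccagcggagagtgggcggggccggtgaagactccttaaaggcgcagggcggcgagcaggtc
Hspa1b, chr17:34959239-34959358: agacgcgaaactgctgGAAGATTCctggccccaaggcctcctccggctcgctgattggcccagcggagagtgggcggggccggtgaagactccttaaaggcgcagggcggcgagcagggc
The core was searched as GAANNTTC or TTCNNGAA, each of which reads the same on both strands, and the match began 104 bases before the start in both genes. At least 1 match lay in 15.1% of all 32851 RefSeq promoters, counted over 300 bases, and in 7 of the 8 heat shock genes of the list that had an entry. A match of these letters is a description and not a measured site.

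Interferon response genes were lower in 5 of 11 counted cases and higher in none (median -0.76), with Ifitm3 at 338 against 958 CPM and 480 against 1076 CPM. Antigen presentation genes were hardly different, with 1 of 9 lower, the immunoproteasome gene Psmb9, and H2-D1 at 2187 against 1873 CPM and 1214 against 1004 CPM. The metallothioneins, which bind zinc and copper, were low. Mt1 stood at 284 against 723 CPM and 389 against 1032 CPM (-1.38 ± 0.04) and Mt2 at 25.3 against 114 CPM and 68.2 against 256 CPM (-2.04 ± 0.19), and with Gsta4 they were the 3 of 10 oxidative stress genes that were lower. None of 15 unfolded protein response genes was called in either direction, among them Hspa5 at 723 against 621 CPM and 448 against 492 CPM. Some of these calls depended on clusters that carried the responses. When clusters 9, 12 and 17 were left out of the other cells, which was added after the values were seen, 2 immediate early genes, 3 heat shock genes and 2 interferon genes were lower, and 1 heat shock gene, Hspb1, was higher.

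Metabolic genes differed in both directions, beside 2.18% higher and 6.99% lower over all counted genes. Of 16 genes of glycolysis and hypoxia, 3 were higher and 5 lower. Ndrg1, a hypoxia-responsive gene, stood at 361 against 140 CPM and 280 against 133 CPM (1.22 ± 0.21), Slc2a1, the glucose transporter GLUT1, at 334 against 209 CPM and 317 against 170.5 CPM, and Adm, adrenomedullin, at 121 against 48.1 CPM and 55.3 against 35.8 CPM. The lower genes were mostly enzymes, with Gapdh at 786 against 1198 CPM and 673 against 1424 CPM and Pgam1 at 136 against 216 CPM and 119 against 211 CPM, together with Hk2, Egln3 and Bnip3. With TMM or DESeq2 scaling the same list gave 3 higher and 1 lower, Bnip3. Of 17 genes of lipid synthesis, 2 were higher and 5 lower. The higher ones were linked to milk fat. Plin2, a lipid droplet coat protein, stood at 629 against 410 CPM and 531 against 258 CPM, and Btn1a1, butyrophilin of the milk fat globule, at 24.9 against 5.55 CPM and 16.6 against 3.12 CPM (2.29 ± 0.17). The lower ones were of sterol synthesis and its control or fatty acid desaturation, among them Sqle at 29.4 against 50.1 CPM and 21.0 against 36.5 CPM and Insig1 at 9.54 against 26.1 CPM and 5.32 against 18.1 CPM. Genes of the respiratory chain encoded in the nucleus were below 0 in both mice in 70 of 78 counted cases, but only 4 were called lower. All 13 mitochondrially encoded genes lay below 0 in both mice and none was called, with a median of -0.20. Of 80 ribosomal protein genes none was called in either direction.

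Acute phase and iron-binding defence genes were higher in 2 of 11 counted cases, Ltf and the ferroxidase gene Cp, and lower in 1, Wfdc2, at 132 against 320 CPM and 73.6 against 953 CPM. Lcn2, the siderophore-binding protein lipocalin 2, was abundant in all cells, at 11837 against 10831 CPM and 8317 against 10762 CPM. Among 10 genes of the EGF receptor family the ligand genes Epgn and Nrg1 were lower and none was higher. As for the other lists, 2.18% higher and 6.99% lower over all counted genes stand beside these small counts. Egfr stood at 96.3 against 47.1 CPM and 56.5 against 41.4 CPM, past the limit in mouse 1 only. Of 6 Notch genes, Hey1 and the ligand gene Jag1 were lower, and Notch1, at 57.5 against 43.5 CPM and 75.2 against 71.8 CPM, was not called.

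**Figure D3:**
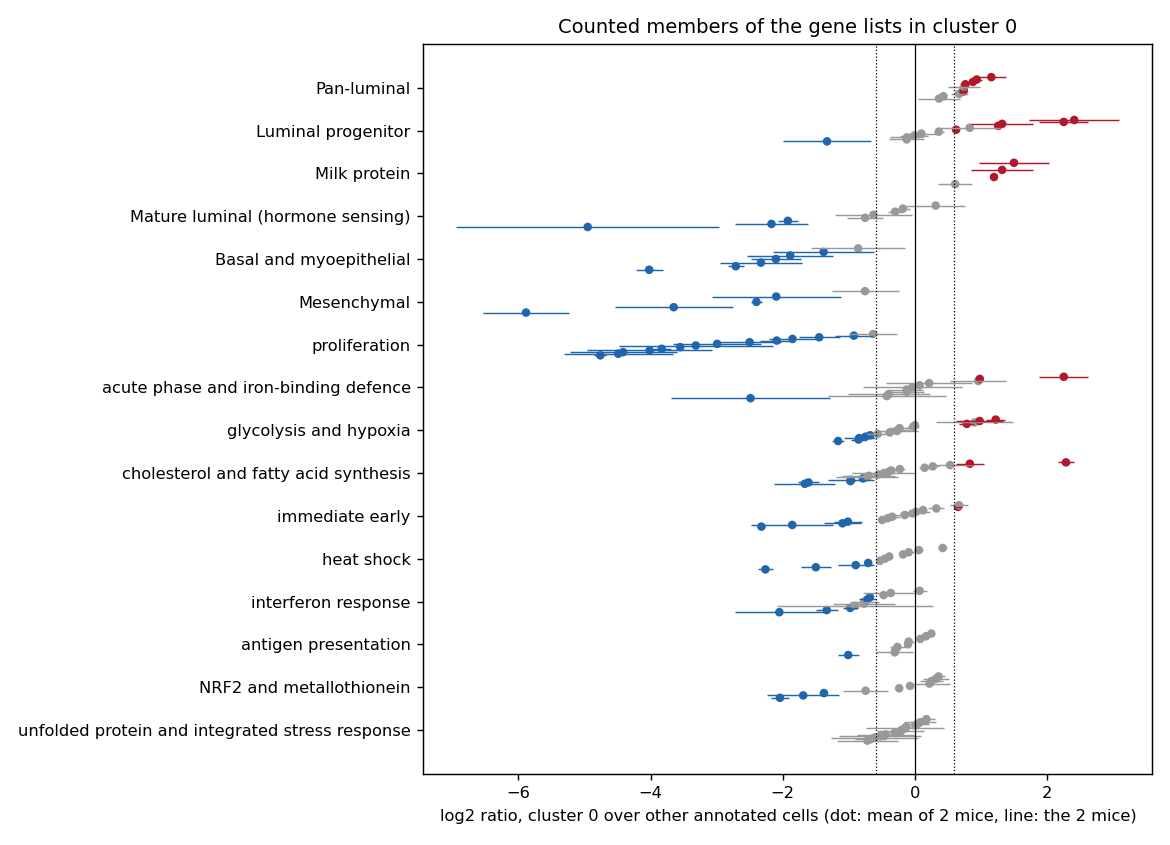
Log2 ratio of cluster 0 over the other annotated cells (horizontal axis) for the counted members of 16 gene lists, where a dot is the mean of 2 mice, a line joins the mice, and red and blue mark genes past the 1.5-fold limit (dotted) in both. Pan-luminal and milk protein genes lie to the right, proliferation, basal and mesenchymal genes to the left, and the stress lists around or below 0.

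The clusters whose summed profiles were closest to cluster 0 were cluster 12 (mean Pearson r of 0.955 on log2 values), cluster 17 (0.9497) and cluster 5 (0.949), with cluster 7 next (0.945). These are correlations across genes, which are not replicates, and the 3 comparisons share the sums of cluster 0. Against cluster 12, 7.72% of genes were higher in cluster 0 and 3.00% lower. Csn3 was similar there, at 6474 and 7800 CPM, as was Krt8, at 6013 and 8054 CPM. The 2 Hsp70 genes were not, since Hspa1a reached 3001 and 2735 CPM in cluster 12 and Hspa1b 4739 and 3159 CPM. Cluster 12 was the highest of 18 for the summed heat shock genes in both mice.

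Against cluster 17, 3.39% of genes were higher and 3.50% lower. The lower genes were led by interferon response genes. Isg15, a ubiquitin-like interferon product, stood at 88.4 CPM in cluster 0 and 1439 CPM in cluster 17 of mouse 1, and at 52.1 and 960 CPM in mouse 2. Iigp1, an interferon-inducible GTPase, stood at 22.4 and 533 CPM, and at 14.5 and 372 CPM. Krt8 differed less, at 5089 and 6518 CPM in cluster 17. Against cluster 5, 8.17% of genes were higher and 4.08% lower. Its cells were shallow, with medians of 2059 and 1638 UMIs, and the part of depth in this comparison was not tested. Krt8 stood at 3955 and 4958 CPM there and Csn3 at 1690 and 3437 CPM. Lif, a cytokine of the interleukin 6 family, stood at 313 CPM in cluster 0 and 63.0 CPM in cluster 5 of mouse 1, and at 232 and 54.3 CPM in mouse 2.

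The inflammatory genes Csf3, Cxcl1 and Cxcl2 were higher in cluster 0 than in each of these neighbours, whereas Spp1 reached 2349 and 2463 CPM in cluster 12 beside 1194.5 and 1102 CPM in cluster 0. Csf3, the granulocyte growth factor G-CSF, stood at 1104 and 677 CPM in cluster 0, at 242 and 306 CPM in cluster 12, at 349 and 349.5 CPM in cluster 17 and at 221 and 94.3 CPM in cluster 5. Cxcl2, a neutrophil-attracting chemokine, stood at 339 and 205 CPM in cluster 0 and had only 2 and 3 UMIs in cluster 12, 41 and 2 UMIs in cluster 17 and 97 and 31 UMIs in cluster 5. Cxcl1 stood at 130 and 132 CPM in cluster 0 and at 1.84 and 23.1 CPM in cluster 12. In thinned cluster 0 cells, the leading 1% (10 and 14 cells) held 73.3% and 53.1% of the Cxcl1 UMIs. For Cxcl2 that share was 61.4% and 71.6%. Cluster 12 had only 78 and 190 cells and cluster 17 only 69 and 59. The contrasts for Cxcl1 and Cxcl2 thus rest on few cells. Other clusters carried more Csf3, Cxcl1 or Cxcl2. Cxcl2 reached 1513 CPM in cluster 6 and 1002 CPM in cluster 10 of mouse 2, and Csf3 reached 1510 CPM in cluster 10 of mouse 2, while cluster 0 had the highest Csf3 level of 18 in mouse 1.

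**Figure D4:**
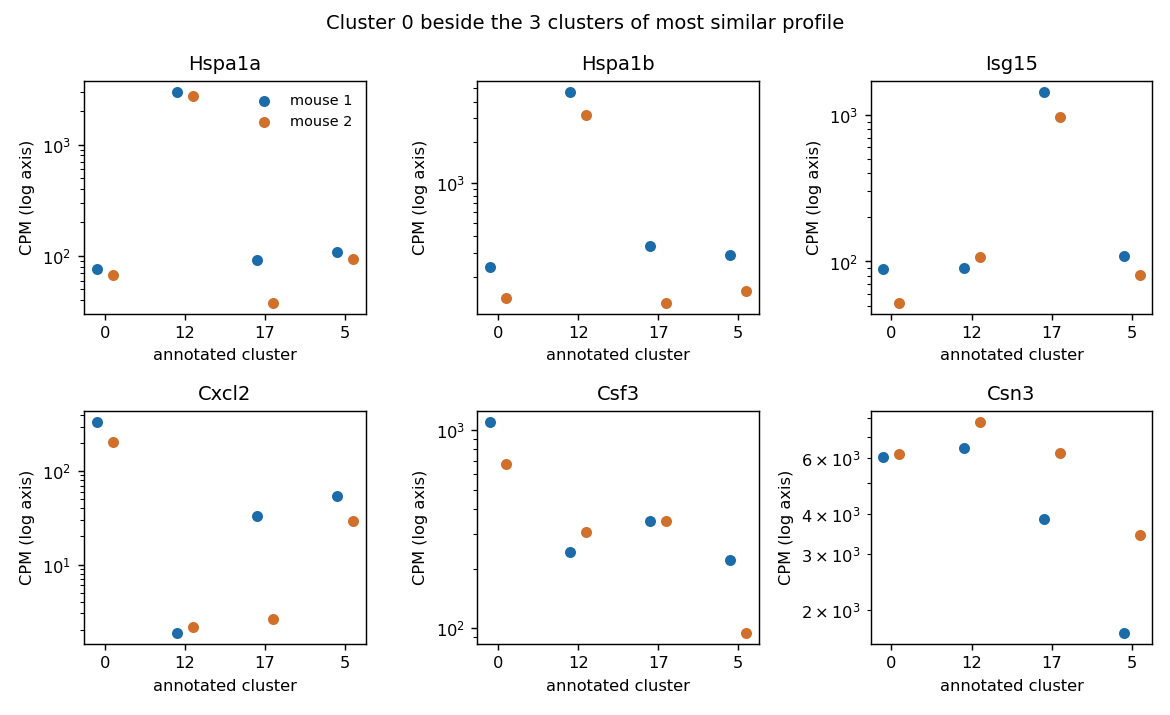
CPM on log axes of Hspa1a, Hspa1b, Isg15, Cxcl2, Csf3 and Csn3 in cluster 0 and in clusters 12, 17 and 5, with 1 point per mouse. Hspa1a and Hspa1b stand out in cluster 12, Isg15 in cluster 17, and Cxcl2 and Csf3 in cluster 0, where few cells held most Cxcl2 UMIs.

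The spread among the cells of cluster 0 was measured gene by gene. Spread was measured in thinned cells as the variance of UMIs over their mean, which is 1 for counting error alone, and its median over 2454 genes was 1.07 in both mice. Cxcl2 had the largest value in the lower of the mice, 46.7 in mouse 1 and 43.4 in mouse 2, followed by Saa1, an acute phase protein, with 34.0 in both mice, Spp1, osteopontin, with 30.1 and 44.4, and Cst3, cystatin C, with 23.0 and 30.6. The other 8 of the leading 12 were Saa2, Wfdc18, Cxcl1, Csf3, Lcn2, Csn3 and the noncoding genes Malat1 and Gm42418. The keratins and Epcam had lower values, with 6.53 and 4.85 for Krt8, 7.02 and 6.49 for Krt18 and 3.45 and 3.62 for Epcam. Aldh1a3, found in only 6.04% and 7.04% of cells, had 6.29 and 4.53, close to Krt8. The measure therefore does not rank evenness among genes of unlike level.

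**Figure D5:**
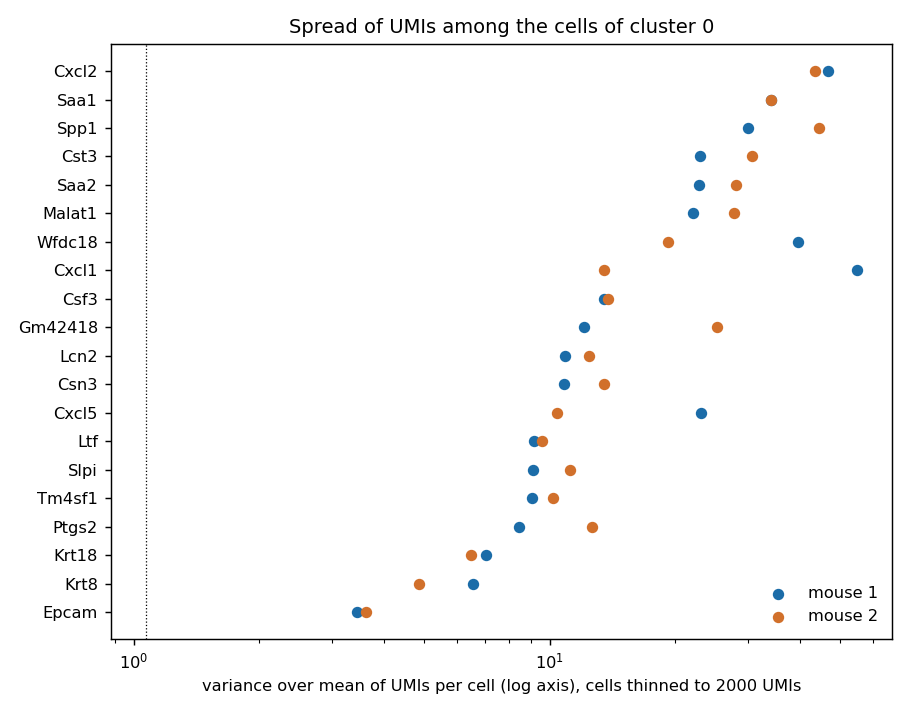
Variance over mean of UMIs per cell (log axis) among the thinned cells of cluster 0 for the most variable genes and the 4 markers, with 1 point per mouse and a dotted line at the median of all genes in mouse 1. Cxcl2, Saa1 and Spp1 lie at the right and Epcam at the left.

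A few cells held most of the Cxcl2 UMIs, in cluster 0 as in the other cells. Cxcl2 was detected in 7.50% of cells in mouse 1 and 4.77% in mouse 2, and the 10 and 14 cells with the most Cxcl2 UMIs, 1% of the cluster, held 61.4% and 71.6% of them. Among the other cells the leading 1% held 76.7% and 76.8%. Csf3 was spread more widely, with a UMI in 37.3% and 26.04% of cells, beside 21.8% and 15.5% of the other cells, and 16.01% and 21.4% of its UMIs in the leading 1%, beside 21.8% and 29.6% in the leading 1% of the other cells. Pairs of these genes, chosen after their values were seen, were often found in the same cells. Of the 72 cells with a Cxcl2 UMI in mouse 1, 54 also had a Csf3 UMI, beside 34.2% of the cells without Cxcl2, and in mouse 2 45 of the 63 such cells had one, beside 23.8%. Cxcl1 was found in 30.6% and 54.0% of the cells with Cxcl2 and in 2.03% and 6.60% of those without. Saa2 accompanied Saa1 in the same way, in 44.1% and 37.9% of the cells with Saa1 and in 0.333% and 1.58% of those without, whereas Ltf was no more frequent in cells with Saa1 (5.08% and 14.8%) than in those without (11.5% and 21.7%). Saa1 and Saa2 are close paralogs, so reads of either may have been assigned to the other.

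The mice were compared over the same 9166 counted genes, some of which had passed the filter of 5 CPM only through the other cells. Within cluster 0, 105 of the 9166 genes were at least 4-fold higher in mouse 1 and 35 were at least 4-fold higher in mouse 2. The sign was the same in the other cells for 97 and 32 of these, and 36 and 11 of them also passed 4-fold there. Ptx3, a pattern recognition protein, stood at 154 CPM in mouse 1 and 5.26 CPM in mouse 2, and the neurotrophin receptor gene Ntrk2 at 110 and 8.28 CPM and Wfdc17 at 171 and 17.8 CPM. The protease gene Adamts1 was also among the 8 with the largest ratios in this direction. A2m, a protease inhibitor, stood at 61.4 CPM in mouse 1 and had 0 UMIs in cluster 0 of mouse 2. Smr2 stood at 118.5 and 3.98 CPM and Amtn at 179.5 and 18.03 CPM. In the opposite direction the imprinted gene Peg3 stood at 5.27 and 55.7 CPM, Dmkn at 44.5 and 235 CPM and the noncoding RNA Tsix at 66.3 and 268 CPM. With 1 library per mouse, the animal and its library cannot be told apart.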

How the data were processed

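Single-cell RNA-seq of GFP-sorted tumor cells was analysed for 2 mice. The matrices the authors deposited are whole-number UMI counts, made with Cell Ranger 6.0.1 on mm10, and their deposited annotation holds the cluster, the mitochondrial fraction and the luminal progenitor, mature luminal and basal scores of each cell. The processing notes name Seurat 4.0.3, whereas the published methods name a later Seurat version. Per the methods, doublets, low-depth cells and mitochondrial outliers were taken out, both mice were integrated before clustering, and immune clusters were dropped before a second clustering. No doublet caller was run here.

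Cells were joined by mouse and barcode, and UMIs were summed per mouse and cluster with Python 3.11.15 (numpy 2.4.6, pandas 2.3.3, scipy 1.17.1). Ratios are of CPM with no pseudocount. A gene with a mean of at least 5 CPM over the 4 sums was counted, and called at 1.5-fold in both mice. Thinning drew 2000 UMIs per cell without replacement (seed 1). TMM factors (edgeR 4.0.16) and DESeq2 1.42.0 size factors were alternative scalings only. Intervals are exact (95%) and cover counting error only. Rows were kept by Ensembl ID (38 symbols repeat). Gene positions are from GENCODE vM21, and promoters from RefSeq.

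Genes named were the 4 markers, the 15 largest ratios each way among called genes of at least 50 CPM, list members of at least 50 CPM (up to 6 per list), up to 12 genes highest in cluster 0 in both mice, the 12 most variable among cells and up to 8 that differed most between the mice each way. Others, such as Btn1a1 and the secreted genes in pairs, were added once values had been seen. The lists and members were chosen with earlier results of these data known. Some genes are in 2 lists. Some genes that the rule names are not reported here.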

Additional observations from a re-analysis of the deposited data

How the results depend on the processing

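The count of called genes followed the limits set. At 2-fold in both mice 52 genes were higher and 266 lower, and at a looser limit 599 and 1569. With a mean of at least 1 CPM 1487 genes were lower, with at least 20 CPM 209, and with no filter on low values 569 were higher and 4309 lower. With TMM factors 397 genes were higher, and with DESeq2 size factors 426 were higher and 384 lower. TMM factors kept 200 of the 200 higher genes and 435 of the 641 lower ones. With a single mouse the limit has to be passed only once, and leaving out each replicate in turn gave 399 to 535 higher and 906 to 1581 lower genes. Krt8 had a log2 ratio of 1.04 with TMM factors, 1.06 with DESeq2 size factors, 0.93 in thinned cells, 0.94 with the other clusters at equal weight and 0.80 without clusters 6, 13, 15 and 16. Krt18 had 0.90, 0.92 and, without those 4 clusters, 0.62, and Epcam had 0.86 with DESeq2 size factors. Csn3 ran from 0.85 without mouse 1 to 1.79 without mouse 2. Of 329 values for the 30 genes with the largest ratios, 275 moved by less than the SD over the mice, 52 by more, and 2 changed sign without clusters 6, 13, 15 and 16, Acta2 to 0.43 and Fst to 0.19. The cause was not tested.

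The ratios are taken within each mouse, so the pairing by animal is already in them, and no test was fitted. With 2 mice an SD rests on 1 degree of freedom, and genes under a few CPM in cluster 0 rest on few UMIs.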

Other observations

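Other secreted genes showed how cluster 0 sat among the 18 clusters. Ptgs2, the inducible cyclooxygenase, had 290.5 and 121 CPM in cluster 0 of the 2 mice, 2nd and 4th of 18, and was highest in cluster 6 at 554.5 and 646 CPM. Spp1 stood at 1194.5 and 1102 CPM, 5th and 7th, and again cluster 6 was highest, at 6811 and 6701 CPM. Lif stood at 313 and 232 CPM, 3rd and 5th. Saa1 stood at 281 and 489 CPM, 7th and 6th, and was highest in cluster 2 at 1654 and 2692 CPM. Ltf, at 221 and 393 CPM, ranked 4th and 2nd. Cluster 0 was in the upper part of the order for these genes in both mice and led for none of them.

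Among the cells of cluster 0, Spp1 UMIs were found in 25.9% of thinned cells in mouse 1 and 18.7% in mouse 2, beside 16.03% and 26.9% of the other cells. Cells with Spp1 more often had a Cst3 UMI, in 19.3% against 7.59% of cells in mouse 1 and in 44.9% against 9.03% in mouse 2, and more often a Ptgs2 UMI in mouse 2 (20.6% against 1.30%) than in mouse 1 (15.3% against 10.4%). These pairs were chosen after the values were seen and were not tested.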
